A study of Mus musculus with 9 samples.

Results

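Myeloid C-type lectin receptors are surface proteins with which macrophages, microglia, monocytes and dendritic cells sense sugars, lipids and damaged cells. Here 10 of them were followed in RNA sequencing of CD11b+ cells from mice carrying GL261 gliomas. The genes were chosen by name and matched to the count table through their Ensembl identifiers. All 10 were found among the 53801 genes listed, and all 10 were among the 12538 protein-coding genes with enough counts to be tested. They were divided by role into 4 activating receptors (Clec4d, Clec4e, Clec4n and Clec5a), 4 inhibitory receptors or close relatives of one (Clec12a, Clec4a1, Clec4a2 and Clec4a3), and 2 uptake receptors (Clec10a and Cd209a).

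The mice were C57BL/6J, aged 10 to 12 weeks, and every one, controls included, received 80000 GL261 glioma cells carrying luciferase and tdTomato into the striatum. CTR mice (2 libraries) were given saline by gavage. OAT-1746 mice (2 libraries) received this oral inhibitor of arginase 1 and 2 at 50 mg/kg, 2 times a day. Anti-PD-1 mice (2 libraries) received an antibody against the checkpoint receptor PD-1 at 2.5 mg/kg in 4 injections between day 8 and day 14, and COMB mice (3 libraries) received both agents. The article's methods place collection at day 28 and a figure legend at day 21. In the labels the treatment of the second anti-PD-1 library reads anti-PD-2. That library was grouped by its title, which it shares with replicate 1. GL261 is a transplanted cell line, the hemisphere as a whole was dissociated, and cells were sorted on CD11b alone, so microglia and infiltrating myeloid cells were sequenced together. There was no tumor-free group among the libraries.

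Library totals were 17490386 and 17729568 counts in CTR, 17380045 and 16784406 in OAT-1746, 14356928 and 18796479 with the antibody alone, and 13048075, 16144518 and 14806017 in COMB. Levels are given as TMM-normalized CPM, which are counts scaled by library size and by the TMM factor of edgeR. The lowest count of any of the 10 receptors in any library was 111, for Clec4d in OAT-1746 replicate 2, so none was near the floor of detection. OAT-1746 replicate 2 stood apart before any receptor was considered. Its median absolute log2 difference to the other libraries, over all tested genes, was 0.52, against 0.17 to 0.27 in the other 8. The tests of the receptors, of the listed genes and of the myeloid marker lists are therefore also given without it. For the lists this was chosen after seeing the data.

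As background, activating receptors of this family signal through partner adaptors that carry an activation motif, chiefly the Fc receptor gamma chain (Fcer1g) or DAP12 (Tyrobp), which recruit the kinase Syk and the adaptor Card9 to switch on cytokine genes. Inhibitory receptors carry a motif in their own tail, the ITIM, whose tyrosine recruits phosphatases such as SHP-1 (Ptpn6) and dampens the same kinases. Uptake receptors bind sugars and deliver their cargo into the cell, and many of these genes mark infiltrating monocytes, macrophages and dendritic cells in the brain more than resting microglia.

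The line between the inhibitory receptors and their relatives can be read in the DNA. The coding sequence of each receptor, from GENCODE release M21 on GRCm38, was searched for the ITIM consensus ahead of the membrane-spanning stretch. It was found in the principal transcripts of Clec12a and Clec4a2 only. The set below, codons 5 to 10 of the 4 inhibitory members, is shown because all 4 have a tyrosine codon at position 7, in capitals, while the codons around it differ. In order, they lie at chr6:129350433-129350450, chr6:123123600-123123617, chr6:122921986-122922003 and chr6:122952880-122952897, each on the plus strand.
Clec12a: attgttTATgcaaatctc
Clec4a2: atcactTATgcagaagtg
Clec4a1: aacattTATactgacgtg
Clec4a3: aacattTATgttaacacg
The residues around the tyrosine meet the consensus in Clec12a and Clec4a2 and do not in Clec4a1 and Clec4a3. Clec4a1 and Clec4a3 were kept with the inhibitory class for their kinship. Over the whole coding sequence Clec4a3 is 75.8% identical to Clec4a2 and 70.5% identical to Clec4a1, and Clec4a1 is 68.8% identical to Clec4a2. The activating Clec4n is 58.5% identical to Clec4a2 and the inhibitory Clec12a 52.3%, so identity did not follow role throughout. In the principal transcripts of the 4 activating receptors no consensus was found, and 2 of them, Clec4e and Clec5a, have a codon for a positive residue within the most hydrophobic stretch, the place where partner adaptors are bound. A match is a description of the sequence, not a measured site of signalling.

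Position is shared too. Of the 10 genes, 8 lie on chromosome 6. Clec4a1, Clec4a3, Clec4a2, Clec4n, Clec4d and Clec4e lie in this order between chr6:122921848-122934619 (Clec4a1, ENSMUSG00000049037) and chr6:123281789-123289870 (Clec4e, ENSMUSG00000030142). The 3 inhibitory members of that stretch come first and the 3 activating ones after them. Clec12a (ENSMUSG00000053063, chr6:129342691-129365303) and Clec5a (ENSMUSG00000029915, chr6:40574894-40585821) lie apart from it, Clec10a (ENSMUSG00000000318) is on chromosome 11 and Cd209a (ENSMUSG00000031494) on chromosome 8.

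In CTR cells all 10 receptors were expressed. Levels of different genes are compared here as CPM per kilobase of exon, mean ± SD of 2 libraries. Clec4n stood first at 147 ± 38.3, followed by Clec4a3 at 90.8 ± 1.76, Clec4a1 at 77.3 ± 16.3 and Clec5a at 61.7 ± 4.18. The libraries of these 4 did not overlap between neighbours in the order. Below them came Clec4d at 27.6 ± 7.61, Cd209a at 24.1 ± 8.11, Clec4a2 at 20.9 ± 2.00, Clec12a at 17.96 ± 1.84, Clec4e at 11.2 ± 6.64 and Clec10a at 10.6 ± 1.97. Of neighbours in this order, Clec4d overlapped Cd209a, Cd209a overlapped Clec4a2, and Clec4e overlapped Clec10a. Only neighbours were compared.

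**Figure D1:**
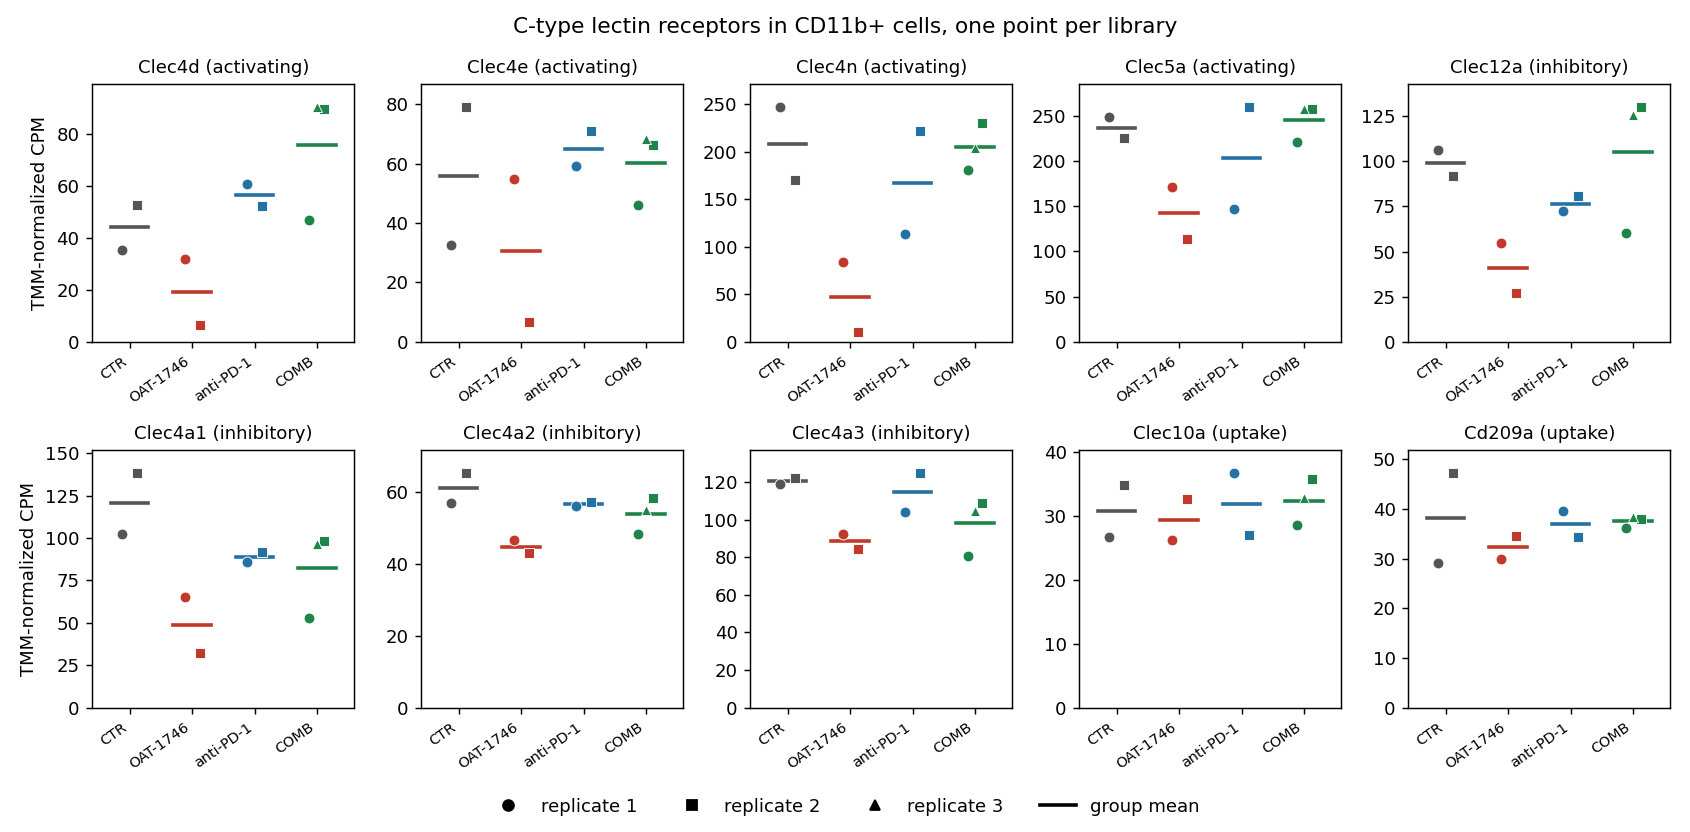
TMM-normalized CPM of each receptor (vertical axes, from 0) in the 4 groups, with a point for each of the 9 libraries and a line at the group mean. Clec4n spans 10.8 to 247 CPM, with both OAT-1746 libraries below all others, while Clec10a spans 26.2 to 36.7 CPM with every group overlapping.

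Among the activating receptors, Clec4n (Dectin-2, ENSMUSG00000023349, chr6:123229843-123247021) binds fungal mannans and signals through the Fc receptor gamma chain. It stood at 247 and 170.1 CPM in CTR, 84.1 and 10.8 in OAT-1746, 114 and 222 with the antibody alone, and 181, 229.9 and 204 in COMB. The 2 OAT-1746 libraries were the lowest of all 9, and the other 3 groups overlapped. Clec4d (MCL, ENSMUSG00000030144, chr6:123262111-123275265) recognises mycobacterial glycolipid and forms complexes with Clec4e. Its levels were 35.5 and 52.7 CPM in CTR, 32.0 and 6.35 in OAT-1746, 60.8 and 52.2 with the antibody alone, and 46.9, 89.9 and 90.5 in COMB. OAT-1746 was again lowest, but its replicate 1 was close to CTR replicate 1, and 2 COMB libraries were the highest of all.

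Clec4e (Mincle) senses the same glycolipid and a nuclear protein released by dying cells. It was measured at 32.5 and 79.1 CPM in CTR, 54.7 and 6.58 in OAT-1746, 59.2 and 71.0 with the antibody alone, and 46.1, 66.3 and 68.3 in COMB. Only OAT-1746 replicate 2 lay outside the CTR range, and its partner replicate lay inside it. Clec5a (MDL-1), which signals through DAP12 and DAP10, stood at 248 and 225.5 CPM in CTR, 171 and 114 in OAT-1746, 147 and 259.6 with the antibody alone, and 221, 257 and 257 in COMB. Both OAT-1746 libraries and anti-PD-1 replicate 1 were low, and all others were at 221 CPM or more.

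Among the inhibitory members, Clec12a (MICL) senses uric acid crystals and restrains the response to dying cells. It stood at 107 and 92.1 CPM in CTR, 54.5 and 27.1 in OAT-1746, 72.5 and 80.6 with the antibody alone, and 60.2, 130.1 and 126 in COMB. The OAT-1746 libraries were the lowest, and COMB was split, with replicate 1 far below the other 2. Clec4a1 (DCIR4) was measured at 102 and 138 CPM in CTR, 65.2 and 32.2 in OAT-1746, 86.1 and 92.0 with the antibody alone, and 53.1, 98.1 and 96.8 in COMB. Every treated library was below both CTR libraries, and COMB replicate 1 lay between the OAT-1746 libraries.

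The other 2 inhibitory members hardly varied. Clec4a2 (DCIR1, ENSMUSG00000030148, chr6:123106428-123143999), an ITIM receptor of dendritic cells and macrophages, was measured at 57.1 and 65.3 CPM in CTR, 46.8 and 43.0 in OAT-1746, 56.1 and 57.3 with the antibody alone, and 48.5, 58.3 and 55.2 in COMB. Clec4a3 (DCIR3, ENSMUSG00000043832, chr6:122952515-122969875), the relative without the consensus, stood at 119 and 122 CPM in CTR, 92.4 and 84.5 in OAT-1746, 104 and 125 with the antibody alone, and 80.9, 109 and 105 in COMB. For both genes OAT-1746 lay below CTR by a small step, and the spread within a group was small as well.

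The uptake receptors are Clec10a (MGL1), which binds galactose-type sugars, and Cd209a, the mouse relative of human DC-SIGN. Clec10a ranged from 26.2 to 36.7 CPM and Cd209a from 29.1 to 47.2 CPM over the 9 libraries. The highest library of Clec10a was 1.40 times the lowest, and that of Cd209a 1.62 times. The same ratio was 1.52 for Clec4a2, 1.54 for Clec4a3, 2.28 for Clec5a, 4.30 for Clec4a1 and 4.80 for Clec12a. It reached 12.02 for Clec4e, 14.2 for Clec4d and 23.0 for Clec4n, with OAT-1746 replicate 2 as the lowest library of each. The receptors thus differed widely in this ratio of extreme libraries. The largest ratios, those of Clec4n, Clec4d and Clec4e, were all of activating receptors and rested on OAT-1746 replicate 2. The class did not sort the receptors fully, since the activating Clec5a had a smaller ratio than the inhibitory Clec12a and Clec4a1.

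The first comparison asks what the arginase inhibitor alone did. All 10 receptors had a lower mean in OAT-1746 than in CTR, and in 7 of the 10 the groups did not overlap, with each OAT-1746 library lower than each CTR library, an arrangement seen in 32.1% of all genes tested. The largest difference was that of Clec4n, from 209 ± 54.4 to 47.4 ± 51.9 CPM (SD, n = 2 each). Its log2 fold change was -2.14 (SE 0.73), with a 95% interval of -3.78 to -0.49, a 4.40-fold lower level. Clec4a1 followed at -1.31 (SE 0.37), Clec12a at -1.28 (SE 0.39) and Clec4d at -1.20 (SE 0.60). Clec10a, at -0.06, and Cd209a, at -0.24, had libraries that overlapped between the groups, and the sign of Clec10a turned to 0.03 when libraries were scaled by their size only. Without CTR replicate 2 both turned positive, to log2 0.13 for Clec10a and 0.14 for Cd209a, and without OAT-1746 replicate 1 Clec10a turned to 0.08. Without CTR replicate 1 Cd209a moved the other way, to -0.54 (unadjusted edgeR p of 0.0221).

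In edgeR's quasi-likelihood test 0 of the 10 receptors had an adjusted p under 0.05, as did 0% of all genes, and DESeq2 called 2, Clec4a1 (adjusted p = 0.0114) and Clec12a (adjusted p = 0.0177). DESeq2 called 7.52% of all genes lower. At an unadjusted p under 0.05 in edgeR, 6 receptors were lower, against 16.2% of all genes lower and 16.1% higher. They were all 4 inhibitory members and, of the activating ones, Clec4n and Clec5a. Their edgeR adjusted p ran from 0.0726 for Clec4a1 to 0.127 for Clec4a3. The median log2 fold change was -0.80 over the 10 receptors and 0.01 over all genes. The p-values here measure the spread between these particular samples, which in most groups are 2.

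These counts leaned on single libraries. Without OAT-1746 replicate 2, which lay furthest from CTR, 2 receptors kept an unadjusted edgeR p under 0.05, Clec4n with a log2 fold change of -1.299 (unadjusted p of 0.00644) and Clec4a1 with -0.87 (0.0305). Without OAT-1746 replicate 1 more receptors had such a p, as did more of all genes, and Clec4n reached -4.28. Leaving out CTR replicate 1 gave 4, Cd209a among them, and leaving out CTR replicate 2 gave 3. The share of all genes lower at that threshold also moved, from 16.2% to 6.33% without OAT-1746 replicate 2, 23.4% without OAT-1746 replicate 1, and 7.42% and 11.3% without CTR replicate 1 and 2. Clec4a1 was the receptor whose unadjusted p stayed under 0.05 with each of the 9 libraries left out in turn. In bulk samples such as these, fewer cells of a type and less RNA per cell cannot be told apart.

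**Figure D2:**
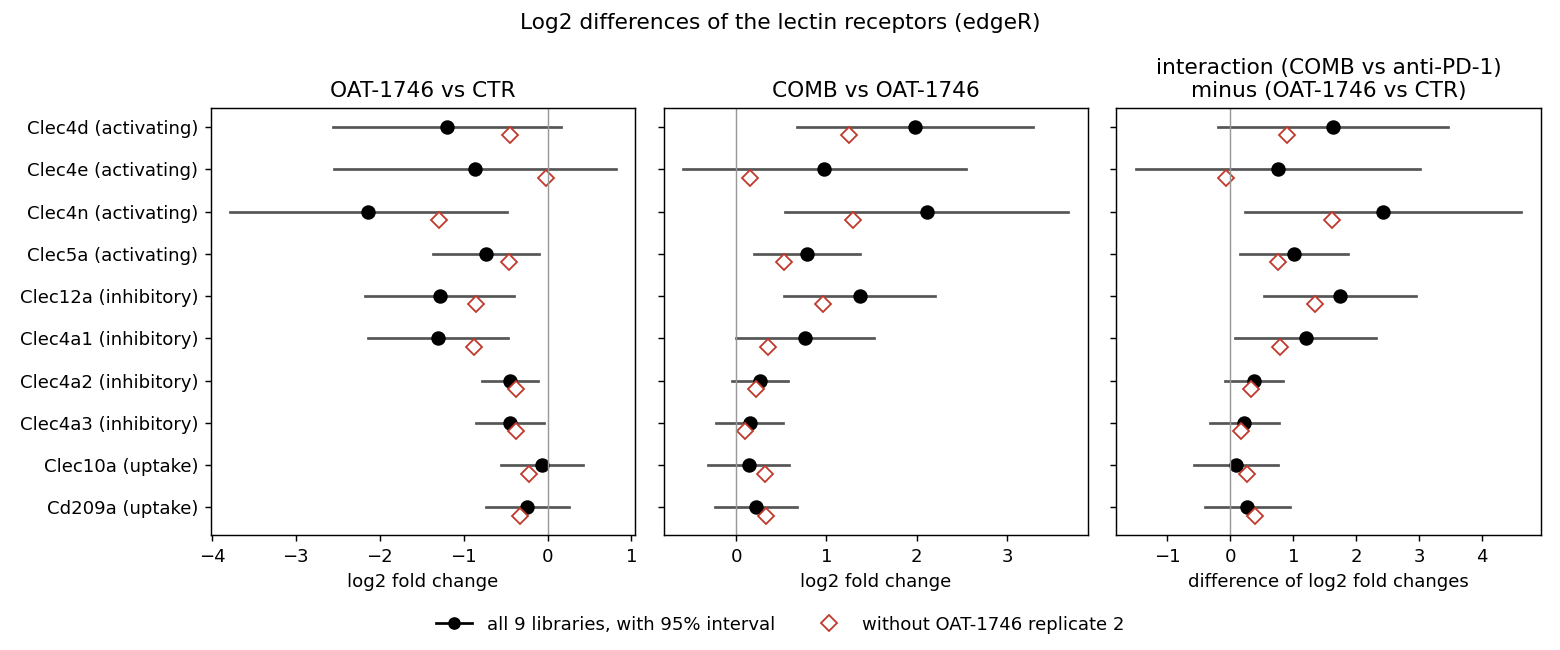
Log2 differences of the 10 receptors in edgeR for OAT-1746 against CTR, COMB against OAT-1746 and the interaction, with 95% intervals (black), and the same without OAT-1746 replicate 2 (open diamonds). Clec4n moves from -2.14 to -1.299 against CTR when that library is left out, and Clec4e from -0.87 to -0.02.

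The next comparison asks what the antibody alone did. The log2 fold changes of anti-PD-1 against CTR ran from -0.44 for Clec4a1 to 0.36 for Clec4d, and 8 of the 10 receptors overlapped between the groups. The other 2, Clec12a and Clec4a1, were lower in both anti-PD-1 libraries than in both CTR libraries, an arrangement seen in 16.9% of all genes. At an edgeR adjusted p under 0.05 there were 0 receptors, at an unadjusted p under 0.05 also 0 (5.12% of all genes), and DESeq2 called 0. The smallest unadjusted edgeR p was 0.261. Without anti-PD-1 replicate 2, Clec5a had a log2 fold change of -0.69 (unadjusted edgeR p of 0.0352).

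With both agents, levels lay around those of CTR. COMB against CTR gave log2 fold changes from -0.54 for Clec4a1 to 0.78 for Clec4d. Clec4a1 and Clec4a3 were lower in every COMB library than in both CTR libraries, as were 15.8% of all genes. In edgeR 0 receptors had an adjusted p under 0.05 and 0 an unadjusted p under 0.05 (6.58% of all genes), and DESeq2 called 0. The smallest unadjusted edgeR p was 0.101, for Clec4a3. Clec4d, at 44.1 ± 12.2 CPM in CTR and 75.7 ± 25.0 in COMB (SD), reached an unadjusted edgeR p of 0.0222 without OAT-1746 replicate 1 and 0.0188 without OAT-1746 replicate 2, which enter that comparison through the shared estimate of spread.

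COMB against anti-PD-1 asks what OAT-1746 added to the antibody. It gave log2 fold changes from -0.22 to 0.46, and all 10 receptors overlapped between these groups. In edgeR 0 had an adjusted p under 0.05 and 0 an unadjusted p under 0.05 (7.23% of all genes), and DESeq2 called 0. Without COMB replicate 1, Clec12a had a log2 fold change of 0.74 (unadjusted edgeR p of 0.0321), and without anti-PD-1 replicate 2, Clec5a had 0.74 (unadjusted edgeR p of 0.0220).

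The comparison with calls at edgeR's adjusted p was that of COMB against OAT-1746, which asks what the antibody added to the inhibitor. All 10 receptors had a higher mean in COMB. Clec4d rose 3.95-fold, a log2 fold change of 1.98 (SE 0.58; 95% interval 0.67 to 3.29), with an edgeR adjusted p of 0.0489, and Clec12a rose 2.58-fold, at 1.37 (SE 0.37; 0.53 to 2.20), with an adjusted p of 0.0419. So 1 activating and 1 inhibitory receptor passed in edgeR, 2 of the 10, where 6.84% of all genes passed as higher. Each was higher in all 3 COMB libraries than in both OAT-1746 libraries, an arrangement of 6 receptors and of 25.0% of all genes.

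At an unadjusted edgeR p under 0.05, 4 receptors were higher, adding Clec4n (log2 fold change 2.11, adjusted p = 0.0656) and Clec5a (0.78, adjusted p = 0.0673), and DESeq2 called all 4, with 13.2% of all genes called higher. In edgeR 18.3% of all genes were higher and 18.8% lower at that threshold. The median was 0.77 over the 10 receptors and 0.00 over all genes. The other 6 had intervals that include 0, with Clec4e at 0.98, Clec4a1 at 0.76, Clec4a2 at 0.27, Clec4a3 at 0.15, Clec10a at 0.14 and Cd209a at 0.22. Without OAT-1746 replicate 1 the value of Clec10a was -0.00.

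Both edgeR calls were close to the threshold. With the replicate number as a block both had an adjusted p of 0.230, and in a fit of only these 2 groups it was 0.108 for Clec4d and 0.0977 for Clec12a, so both were lost. With all genes in place of protein-coding ones Clec4d was lost, at 0.0520. They were lost without CTR replicate 1, CTR replicate 2, OAT-1746 replicate 2, COMB replicate 2, COMB replicate 3, anti-PD-1 replicate 1 or anti-PD-1 replicate 2, where the adjusted p ran from 0.0611 to 0.217 for Clec12a and from 0.0699 to 0.168 for Clec4d. They held without COMB replicate 1. Without OAT-1746 replicate 1 the log2 fold changes were 3.58 for Clec4d and 1.96 for Clec12a. Without OAT-1746 replicate 2 the log2 fold changes were 1.25 for Clec4d, 0.96 for Clec12a, 1.30 for Clec4n and 0.53 for Clec5a. The unadjusted p of Clec4d, Clec12a and Clec4n stayed under 0.05 with each library left out in turn, while that of Clec5a was 0.0817 without OAT-1746 replicate 2.

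Since Clec4d and Clec12a were the receptors that edgeR called there, 1 from each class, their promoters are shown with that of Clec4a2, which hardly moved. Each window runs from 250 bases before to 50 bases after the transcript start (RefSeq, GRCm38.p6), at chr6:123261857-123262156, chr6:129349994-129350293 and chr6:123122440-123122739, all on the plus strand. Capitals mark GAGGAA, the core bound by the myeloid factor PU.1 and its relatives, or its reverse complement TTCCTC, and in Clec12a also TTGCGCAA, a C/EBP palindrome that reads the same on both strands. No match of one overlaps a match of the other.
Clec4d: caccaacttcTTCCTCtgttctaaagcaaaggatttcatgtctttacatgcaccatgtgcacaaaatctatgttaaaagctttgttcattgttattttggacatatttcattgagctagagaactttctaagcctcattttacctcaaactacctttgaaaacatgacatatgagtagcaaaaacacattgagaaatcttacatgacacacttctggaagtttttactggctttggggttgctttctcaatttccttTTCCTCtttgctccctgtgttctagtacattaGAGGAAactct
Clec12a: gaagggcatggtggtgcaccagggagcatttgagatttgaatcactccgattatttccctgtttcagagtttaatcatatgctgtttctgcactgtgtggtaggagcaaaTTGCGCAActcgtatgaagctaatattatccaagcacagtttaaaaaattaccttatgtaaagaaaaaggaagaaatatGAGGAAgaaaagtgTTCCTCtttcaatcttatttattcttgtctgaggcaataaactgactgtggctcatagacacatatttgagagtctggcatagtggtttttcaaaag
Clec4a2: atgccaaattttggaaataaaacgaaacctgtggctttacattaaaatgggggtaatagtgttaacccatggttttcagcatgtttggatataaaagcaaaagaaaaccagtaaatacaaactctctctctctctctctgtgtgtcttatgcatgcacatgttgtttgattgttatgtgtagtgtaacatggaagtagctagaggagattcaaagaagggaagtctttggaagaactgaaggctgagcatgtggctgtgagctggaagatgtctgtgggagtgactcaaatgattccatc
GAGGAA was found 3 times in the window of Clec4d, 2 times in that of Clec12a and 0 times in that of Clec4a2. On either strand it is held by 28.3% of the 32851 promoters in the RefSeq table, and TTGCGCAA by 0.183% of them. The windows of Clec4e, Clec5a and Clec4a1 hold GAGGAA 2 times each, that of Cd209a 0 times, and the 2 windows of Clec4a3 0 and 1 times. Clec4n and Clec10a have no entry. A match is a description of letters, not a site, and 0 matches says only that these letters are not in this window.

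Whether OAT-1746 acted differently with and without the antibody is the interaction, its effect in mice given the antibody minus its effect in mice without it. Its estimate was positive for all 10 receptors, with a median of 0.88, against -0.02 over all genes. For Clec10a, whose estimate was 0.09, the sign turned when libraries were scaled by their size only. The largest were those of Clec4n at 2.43 (SE 0.97), Clec12a at 1.74 (SE 0.53) and Clec4d at 1.62 (SE 0.81). In edgeR 0 receptors had an adjusted p under 0.05, where 0.359% of all genes had, and 4 had an unadjusted p under 0.05, 2 from each class, where 11.8% of all genes had one with a positive estimate. DESeq2 called 1, Clec12a, with an adjusted p of 0.0249, where it called 3.46% of all genes as positive. These comparisons share libraries, so their agreement is not independent evidence.

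The interaction also leaned on single libraries. The count at an unadjusted edgeR p under 0.05 was 1 without COMB replicate 2 or anti-PD-1 replicate 1, 2 without COMB replicate 3 or OAT-1746 replicate 2, 3 without CTR replicate 1, CTR replicate 2 or anti-PD-1 replicate 2, and 6 without OAT-1746 replicate 1. Without OAT-1746 replicate 1 the estimate was 4.57 for Clec4n and 2.34 for Clec12a. Without COMB replicate 1 the count stayed at 4, where 14.6% of all genes were positive at the unadjusted threshold. In that fit 1 receptor had an adjusted p under 0.05, but no share over all genes is given at the adjusted threshold. Of all genes, 11.8% were positive at the unadjusted threshold with all libraries. That share was 7.14% without COMB replicate 2, 6.85% without anti-PD-1 replicate 1, 8.53% without COMB replicate 3, 7.96% without OAT-1746 replicate 2, 7.63%, 8.53% and 9.72% in the 3 settings with a count of 3, and 20.6% without OAT-1746 replicate 1, so the share over all genes was also lower or higher in these settings. Clec12a kept an unadjusted p under 0.05 with each library left out in turn, with estimates from 1.34 to 2.34. The direction turned for 3 receptors. Without CTR replicate 2 the estimates were -0.02 for Clec4e, -0.10 for Clec10a and -0.11 for Cd209a. That of Clec4e was -0.07 without OAT-1746 replicate 2, and that of Clec10a was -0.05 without OAT-1746 replicate 1 and -0.10 without anti-PD-1 replicate 2.

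Activating receptors were then set against inhibitory ones within each library, as the mean log2 CPM of the 4 activating genes minus that of the 4 inhibitory genes. This difference was -0.02 and 0.16 in CTR, 0.18 and -1.47 in OAT-1746, 0.18 and 0.50 with the antibody alone, and 0.70, 0.53 and 0.55 in COMB. The 3 COMB libraries lay above all others, with anti-PD-1 replicate 2 next to them, and OAT-1746 replicate 2 lay far below. The group means were 0.07 ± 0.13 in CTR, -0.65 ± 1.17 in OAT-1746, 0.34 ± 0.23 with the antibody alone and 0.59 ± 0.09 in COMB (SD over 2, 2, 2 and 3 libraries). No test was made, since the genes were chosen with results known.

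The classes did not part in OAT-1746 as a group. In replicate 1 both were lower than in CTR by about the same step, from mean log2 CPM of 6.52 and 6.82 in CTR to 6.15 for the activating genes, and from 6.54 and 6.65 to 5.97 for the inhibitory genes. In replicate 2 the activating mean was 3.93 and the inhibitory mean 5.40. There the activating genes Clec4d, Clec4e and Clec4n were at 6.35, 6.58 and 10.8 CPM while Clec4a2 and Clec4a3 were still at 43.0 and 84.5 CPM. Without replicate 2 the OAT-1746 difference is 0.18, and without replicate 1 it is -1.47.

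The order of COMB depended on how the classes were drawn. With Clec12a and Clec4a2, the ITIM carriers, as the only inhibitory genes, the differences were 0.84, 0.65 and 0.69 in COMB, 0.46 and 0.83 in anti-PD-1, 0.23 and 0.54 in CTR, and 0.49 and -1.17 in OAT-1746. COMB then overlapped anti-PD-1 and still lay above both CTR libraries. With the median in place of the mean, anti-PD-1 replicate 2, at 0.54, lay within the COMB range of 0.43 to 0.71. Summed CPM of the activating over the inhibitory genes were 1.46 and 1.26 in CTR, 1.32 and 0.736 in OAT-1746, 1.19 and 1.70 with the antibody alone, and 2.04, 1.63 and 1.62 in COMB.

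**Figure D3:**
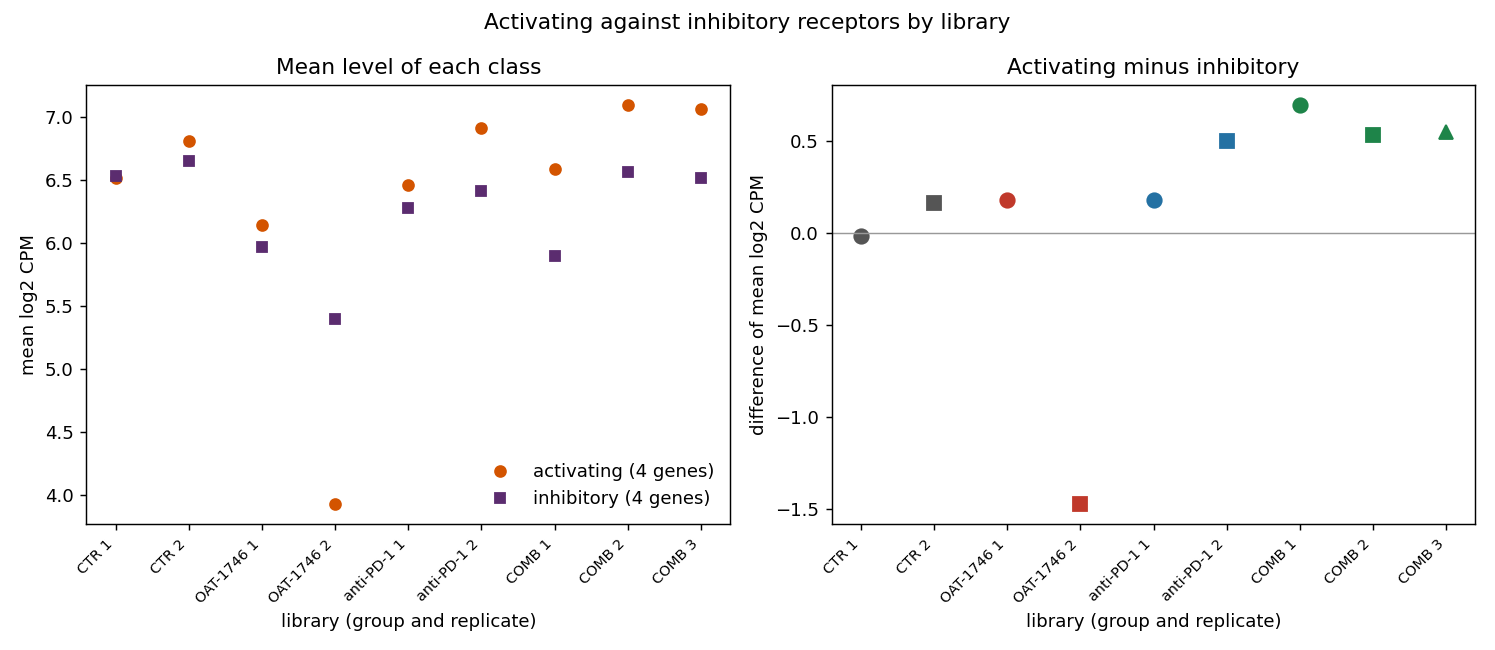
Mean log2 CPM of the 4 activating and the 4 inhibitory receptors in each library (left) and their difference, activating minus inhibitory (right). The COMB libraries lie at 0.53 to 0.70 and the CTR libraries at -0.02 and 0.16, and OAT-1746 replicate 2, at -1.47, lies far from its partner at 0.18.

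The signalling partners were followed as well. Of 15 adaptors and kinases that serve activating lectin receptors, 6 had a higher and 9 a lower mean in OAT-1746 than in CTR, with a median log2 fold change of -0.04. At an unadjusted edgeR p under 0.05, 2 were lower, the adaptors Tyrobp (-0.56) and Hcst (DAP10; -0.71), and 1 was higher, the B cell linker Blnk (0.69). That is no larger a share than the 16.2% lower and 16.1% higher over all genes. In edgeR 0 had an adjusted p under 0.05. The 3 values without OAT-1746 replicate 2 were -0.31, -0.58 and 0.35, and 0 had an unadjusted p under 0.05, where 6.33% of all genes were then lower and 8.30% higher. Without CTR replicate 1 they were -0.58, -0.69 and 0.53, and the threshold was lost there as well. Per kilobase Tyrobp was the most abundant of the list, with a mean of 1300.4 CPM over the 9 libraries. Tyrobp stood at 903 and 945 CPM in CTR, 741 and 511 in OAT-1746, 987 and 892 with the antibody alone, and 826, 1066 and 936 in COMB, so both OAT-1746 libraries were the lowest.

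In COMB against OAT-1746, Hcst rose (log2 fold change 1.17, edgeR adjusted p = 0.0334) and Blnk fell by 0.93 on the log2 scale (adjusted p = 0.0343), 1 of 15 each, beside 6.84% of all genes called higher and 8.94% lower. At an unadjusted p under 0.05, Tyrobp (0.59) was also higher and Syk (-0.57) lower, 2 higher and 2 lower in all, beside 18.3% and 18.8% of all genes. There were 1 and 1 without OAT-1746 replicate 2, Hcst (1.06) and Blnk (-0.56), beside 9.96% and 9.43% of all genes, with Tyrobp at 0.36, Syk at -0.49 and 0 adjusted calls. The call of Hcst was also lost without CTR replicate 1 or 2 or COMB replicate 2 or 3, and held without the others. That of Blnk held only without OAT-1746 replicate 1 or COMB replicate 1. The interaction had 0 positive and 2 negative at that threshold, Blnk (-0.96) and Syk (-0.66), where 14.4% of all genes were negative, and 0 without OAT-1746 replicate 2 (-0.59 and -0.58). Anti-PD-1 and COMB against CTR, and COMB against anti-PD-1, had 0 of 15 at an unadjusted edgeR p under 0.05 in either direction, and so 0 adjusted.

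The 4 genes listed as phosphatases of inhibitory receptors went both ways. Inpp5b, a relative of Inpp5d on this list, is not known to be recruited by an ITIM. Of the 4, Inpp5d (SHIP1), which removes a phosphate from a membrane lipid, was higher in OAT-1746 than in CTR (log2 fold change 0.60, unadjusted edgeR p of 0.0136), while Ptpn6 (-0.48, p of 0.0229) and Inpp5b (-0.61, p of 0.0293) were lower, none with an adjusted p under 0.05, beside 16.1% of all genes higher and 16.2% lower. In COMB against OAT-1746 Inpp5d fell by 0.75 on the log2 scale (adjusted p = 0.0318), and Inpp5b was at 0.58 (unadjusted p of 0.0266). Inpp5d was at -0.77 in the interaction (unadjusted p of 0.0163). With OAT-1746 replicate 2 left out, Inpp5d, Ptpn6 and Inpp5b were at 0.41, -0.32 and -0.49 against CTR, Inpp5b at 0.48 in COMB against OAT-1746 and Inpp5d at -0.55 in the interaction, none with an unadjusted p under 0.05. The adjusted call of Inpp5d in COMB against OAT-1746, where 8.94% of all genes were called lower, was lost without that library, at -0.54, and without CTR replicate 1 or 2, COMB replicate 2 or 3 or anti-PD-1 replicate 1. Ptpn6 was the most abundant per kilobase, at a mean of 181 CPM.

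A further 29 genes were listed as C-type lectin receptors of myeloid cells, of which 28 were matched among protein-coding genes and 22 tested. In OAT-1746 against CTR 7 had a higher and 15 a lower mean, with a median log2 fold change of -0.30. At an unadjusted edgeR p under 0.05, 6 of the 22 were lower and 2 higher, beside 16.2% and 16.1% of all genes, and 0 had an adjusted p under 0.05. The lower ones were Cd72 (-2.005), an ITIM receptor known from B cells, Klrb1b (-1.73), an inhibitory receptor known from NK cells, Cd69 (-1.55), an early activation antigen, Clec9a (-1.25), which senses exposed actin on dead cells, Clec2i (-1.20) and the oxidised LDL receptor Olr1 (-1.08). The higher ones were the mannose receptor Mrc1 (0.54) and Clec16a (0.47). Clec16a shares the family name but is not a surface receptor, and it stays in the counts of this list. Cd72 stood at 159 and 221 CPM in CTR, 69.4 and 25.5 in OAT-1746, 67.8 and 109 with the antibody alone, and 63.2, 114 and 102 in COMB, so that every treated library was below both CTR libraries. Cd72 (-1.44), Cd69 (-1.34) and Klrb1b (-1.25), with OAT-1746 replicate 2 left out, kept an unadjusted p under 0.05, beside 6.33% of all genes lower. The others did not, with Clec9a at -0.65, Clec2i at -0.86, Olr1 at -0.78, Mrc1 at 0.31 and Clec16a at 0.30.

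In COMB against OAT-1746, Klrb1b rose (log2 fold change 1.72, edgeR adjusted p = 0.0253) and so did Cd302 (0.63, adjusted p = 0.0426), the most abundant of this list per kilobase at a mean of 40.0 CPM. These are 2 of 22, beside 6.84% of all genes called higher. At an unadjusted p under 0.05, Cd72 (0.98) and Cd69 (0.53) were also higher, and Mrc2 (-0.77), Clec16a (-0.52) and Mrc1 (-0.50) lower, 4 and 3 of 22, beside 18.3% and 18.8% of all genes. When OAT-1746 replicate 2 was left out, Klrb1b (1.27) and Cd302 (0.63) kept an unadjusted p under 0.05 (9.96% of all genes higher) and 0 an adjusted one, while Cd72 (0.44), Cd69 (0.33), Mrc2 (-0.68), Clec16a (-0.33) and Mrc1 (-0.24) kept neither. The call of Klrb1b was also lost without COMB replicate 2 or 3, and that of Cd302 held only without COMB replicate 1. In the interaction 4 were positive at that threshold, Cd72 (2.08), Klrb1b (1.85), Cd302 (0.90) and Cd69 (0.82), and 2 negative, Mrc2 (-0.94) and Clec16a (-0.63), beside 11.8% and 14.4% of all genes. Without that library Cd72 (1.55), Klrb1b (1.40) and Cd302 (0.91) remained (7.96% of all genes positive), with Cd69 at 0.63, Mrc2 at -0.85 and Clec16a at -0.43. Cd72 was at -1.11 in anti-PD-1 against CTR, and Cd72, Cd69 and Olr1 at -1.03, -1.03 and -1.38 in COMB against CTR, with unadjusted p under 0.05 and no adjusted call. These are 1 and 3 of 22, beside 1.94% and 3.37% of all genes lower. Cd72 lost the threshold against CTR in anti-PD-1 without CTR replicate 2 (-0.86) or anti-PD-1 replicate 1 (-0.80), and in COMB without CTR replicate 2 (-0.78) or COMB replicate 1 (-0.84), while Cd69 and Olr1 kept it. Against anti-PD-1, COMB had Cd209f at 1.00 and Cd302 at 0.60, Olr1 at -0.88 and Cd69 at -0.73, again with no adjusted call, 2 higher and 2 lower of 22, beside 1.98% and 5.26% of all genes. There Cd302 kept the threshold with each library left out. Cd209f (0.69) and Cd69 (-0.60) lost it without anti-PD-1 replicate 2, and Olr1 without COMB replicate 2 (-0.88), COMB replicate 3 (-0.66) or anti-PD-1 replicate 1 (-0.72).

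**Figure D4:**
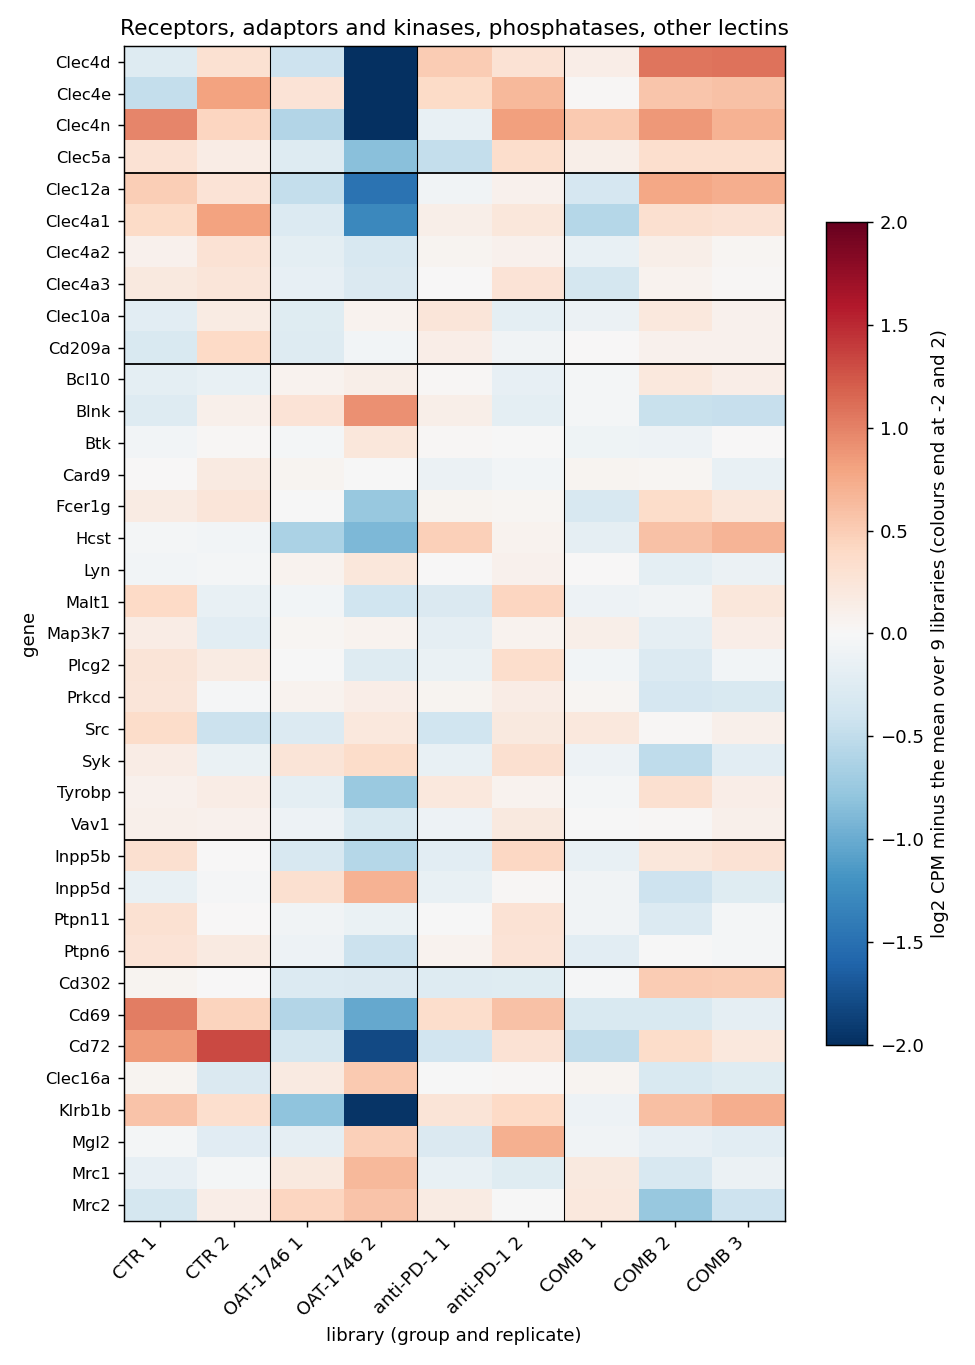
Log2 CPM minus the mean over the 9 libraries (colour, ending at -2 and 2) for the 10 receptors, 15 adaptors and kinases, 4 phosphatases and the genes listed as other lectin receptors with a mean of at least 10 CPM. OAT-1746 replicate 2 is lowest for Clec4n, at 10.8 CPM, and for Cd72, at 25.5 CPM, and highest for Inpp5d, at 1420 CPM.

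Markers of the cell types in the CD11b+ gate differed between libraries as well. Itgam, which encodes CD11b, was at 302 and 370 CPM in CTR, 445 and 446 in OAT-1746, 294 and 327 with the antibody alone, and 366, 307 and 328 in COMB. It had an unadjusted edgeR p under 0.05 as higher in OAT-1746 than in CTR (log2 fold change 0.41). The same held as lower in COMB than in OAT-1746 (-0.42), without an adjusted call. Without OAT-1746 replicate 2 it had neither, though replicate 1 stood at 445 CPM, beside 446 in replicate 2. Ptprc, listed with Itgam, went the other way without such a p in either comparison. It was at 708 and 676 CPM in CTR, 554 and 379 in OAT-1746, 460 and 760 with the antibody alone, and 506, 438 and 553 in COMB. The sum over 9 microglia markers, the most abundant being Cx3cr1, was 9790.0 and 15799 CPM in CTR, 21837 and 27578 in OAT-1746, 14841 and 12589 with the antibody alone, and 18250.1, 13053 and 12467 in COMB. The sum over 10 markers of monocytes and monocyte-derived macrophages, led by Lyz2, was 7976 and 8131 CPM in CTR, 6788 and 1491 in OAT-1746, 8813 and 9845 with the antibody alone, and 6502, 6016 and 6326 in COMB. OAT-1746 replicate 2, the library lowest in Clec4d, Clec4e and Clec4n, was thus highest in microglia markers and lowest in monocyte markers.

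Between OAT-1746 and CTR, 9 of 9 microglia markers had a higher mean, all with an unadjusted edgeR p under 0.05, and 10 of 10 monocyte markers a lower mean, 4 of them with such a p, beside 16.1% of all genes higher and 16.2% lower. The microglia markers were still 9 of 9 higher without OAT-1746 replicate 2, 6 with such a p (8.30% of all genes), and without CTR replicate 1 it was 2 (10%). The monocyte markers were not lower as a list without OAT-1746 replicate 2, with 6 of 10 higher (1 with such a p) and 4 lower (2; 6.33% of all genes). The 4 became 0 without CTR replicate 1 (7.42%), 2 without CTR replicate 2 (11.3%) and 10 without OAT-1746 replicate 1 (23.4%). In OAT-1746 replicate 1, Ly6c2 (929 CPM, against 303 and 692 in CTR), Plac8 (663, against 345 and 578) and Vcan (28.1, against 19.6 in each) were above both CTR libraries, and the monocyte sum without Lyz2 was 3648, within the 3183 and 3835 of CTR. Between COMB and OAT-1746, 9 of 9 microglia markers were lower, all with an unadjusted p under 0.05 and 2 adjusted, and 8 of 10 monocyte markers were higher, 0 at an unadjusted edgeR p under 0.05, beside 18.8% of all genes lower and 18.3% higher. Again without OAT-1746 replicate 2, 9 of 9 microglia markers were lower, 2 with such a p (9.43% of all genes) and 0 adjusted, and 3 of 10 monocyte markers were higher. With 1 other library left out, the microglia count with such a p was 3 without COMB replicate 2 (13.2%), 2 without COMB replicate 3 (12.3%) and 8 or 9 otherwise (17.4% to 21.2%), and the adjusted count ran from 0 to 7. In this comparison 10 of 12 dendritic cell markers were higher (3 with such a p, 1 adjusted) and 2 lower (1, 1 adjusted), 5 of 9 markers of border-associated macrophages were higher (3, 1 adjusted) and 4 lower (0), 9 of 9 NK cell markers were higher (3), and 3 of 10 neutrophil markers were higher (0). Leaving out OAT-1746 replicate 2, 8 dendritic (1), 5 border-associated macrophage (2), 8 NK cell (0) and 8 neutrophil markers (1) were higher (9.96% of all genes), and 0 of these lists had an adjusted call. With any 1 library left out, the counts higher with such a p ran from 1 to 7 for dendritic cells, 2 to 3 for border-associated macrophages, 0 to 7 for NK cells and 0 to 1 for neutrophils, beside 9.96% to 23.9% of all genes. Their part in the receptor differences was not tested. No defining marker of either list was at 0 in any library. COMB replicate 1, low in Clec12a and Clec4a1, had the highest microglia sum of its group. In COMB 10 of 10 monocyte markers had a lower mean than in anti-PD-1, 1 with such a p (5.26% of all genes). The part of these cell types in the receptor differences was not tested.

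Other myeloid lists moved less evenly in OAT-1746 against CTR. Of 9 markers of border-associated macrophages, led by Apoe, 5 had a lower mean (3 with an unadjusted edgeR p under 0.05) and 4 a higher one (1). Of 12 dendritic cell markers, led by Itgax, 8 were lower (5) and 4 higher (1), and of 10 neutrophil markers, led by S100a9, 8 were higher (3) and 2 lower (0), beside the same shares of all genes. The lower and higher counts without OAT-1746 replicate 2 were 5 (2) and 4 (0) for border-associated macrophages, 6 (3) and 6 (3) for dendritic cells, and 3 (0) and 7 (0) for neutrophils, beside 6.33% of all genes lower and 8.30% higher. The summed neutrophil level was 76.6 and 182 CPM in CTR, 159 and 265 in OAT-1746, 135 and 104 with the antibody alone, and 198, 229 and 218 in COMB. In COMB 7 of 10 neutrophil markers were higher than in CTR, 3 with such a p (3.21% of all genes), and 3 lower (0). Against anti-PD-1, 7 were higher in COMB (6; 1.98% of all genes) and 3 lower (1; 5.26%). The summed dendritic level was 1831 and 1268 CPM in CTR, 1266 and 955 in OAT-1746, 1036 and 1608 with the antibody alone, and 1260.1, 1222 and 1292 in COMB. These sums rest on 2 genes that went opposite ways, Itgax at 1431 and 667 CPM in CTR and 404 and 96.4 in OAT-1746, and Fscn1 at 268 and 457 in CTR and 712 and 794 in OAT-1746. The other 10 markers summed to 132 and 145 CPM in CTR and 149 and 64.7 in OAT-1746. The border-associated macrophage sum was 4216 and 3763 CPM in CTR, 2203 and 2085 in OAT-1746, 2876 and 2850.4 with the antibody alone, and 2400.3, 2316 and 2646 in COMB. With Apoe every treated library was below CTR. Without it CTR stood at 1273 and 1438 CPM, COMB replicate 3 at 1273 and anti-PD-1 replicate 2 at 1275, and 6 of the 9 markers had a higher mean in COMB than in CTR.

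Markers of cells outside the myeloid lineage were at low levels. The sum over 9 NK cell markers, led by Klrk1, was 68.2 and 79.1 CPM in CTR, 90.7 and 22.7 in OAT-1746, 279 and 167 with the antibody alone, and 76.8, 139 and 147 in COMB. All 9 had a higher mean in anti-PD-1 than in CTR, 7 with an unadjusted edgeR p under 0.05, as had 3.18% of all genes, and 5 without anti-PD-1 replicate 1 (1.85%). The highest sum in any library was 25.5 CPM for T cell markers, 26.6 for B cells, 305 for oligodendrocytes, 72.8 for astrocytes, 183 for endothelial cells and 30.7 for erythroid cells. In OAT-1746 against CTR these lists had at an unadjusted edgeR p under 0.05, of the genes tested, 0 of 9 NK cell, 0 of 6 T cell, 1 of 4 B cell, 0 of 5 oligodendrocyte, 0 of 4 astrocyte, 1 of 5 endothelial and 0 of 5 erythroid markers. The B cell and the endothelial marker were higher. Over all genes 16.1% were higher and 16.2% lower at that threshold.

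**Figure D5:**
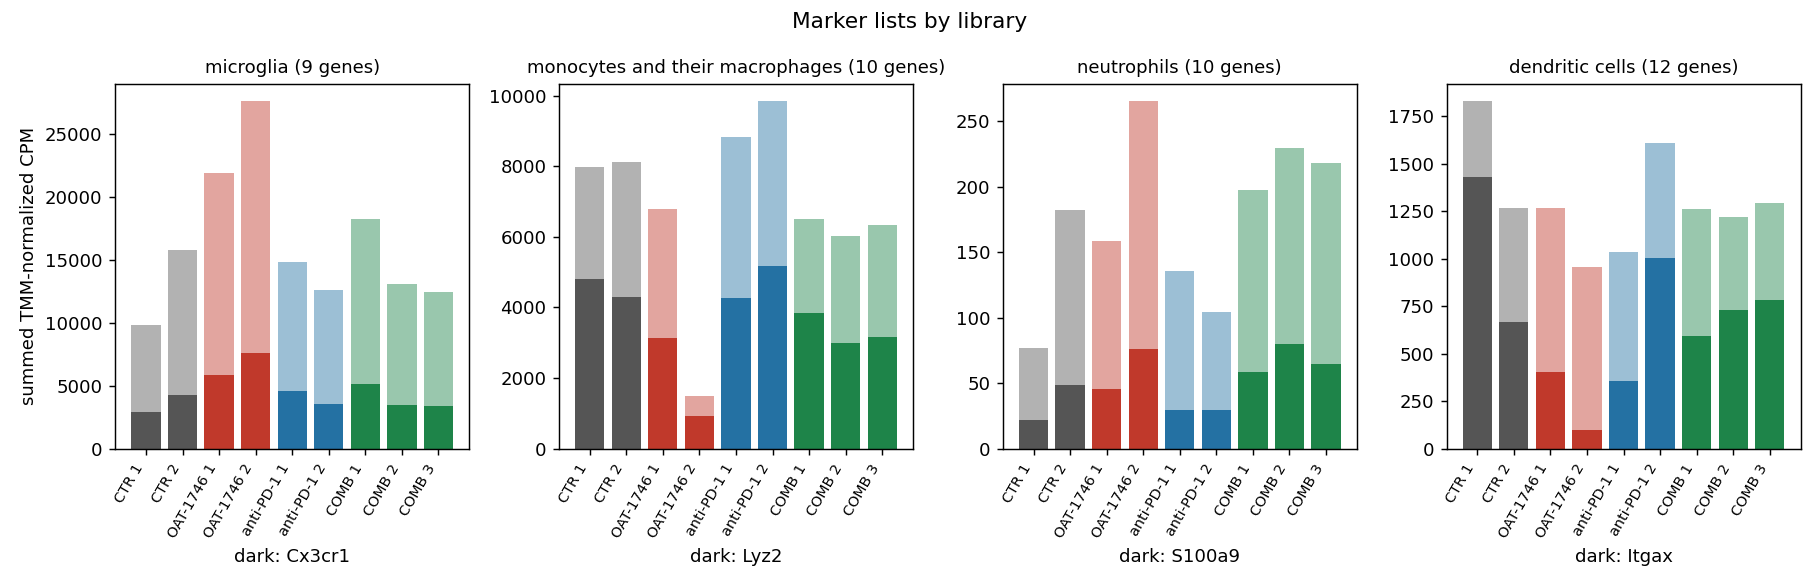
Summed TMM-normalized CPM (vertical axes, from 0) of marker lists for microglia, monocytes and their macrophages, neutrophils and dendritic cells in each library, with the most abundant gene of each list in the dark part of the bar. OAT-1746 replicate 2 has the highest microglia sum, 27578, and the lowest monocyte sum, 1491.

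Genes with the most similar course over the 9 libraries were found by the root mean square difference of centred log2 CPM, among 9417 genes with a mean of at least 5 CPM. This was done with all 9 libraries only, and the measure is smaller between genes that vary little. For Clec4n they were the scavenger receptor Msr1 (0.22), the cytokine signalling suppressor Socs2 (0.26) and the matrix protein Tgfbi (0.26), and for Clec4d the actin-capping protein Capg (0.19), the adenosine receptor Adora2b (0.20) and Ly6a (0.26). Clec4e was nearest to Gm21188 (0.26), Oas1g (0.26) and Car13 (0.30), and Clec5a to Nrd1 (0.07), Ezh2 (0.11) and Htatsf1 (0.12). Clec12a was nearest to Chchd1 (0.14), Aldh3b1 (0.14) and the antigen-presentation gene H2-DMb1 (0.15). Clec4a1 was nearest to Irak3 (0.17), a brake on Toll-like receptor signalling, Dbi (0.18) and Actr3 (0.19).

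The other receptors varied least. Clec4a2 was nearest to Cdc42se2 (0.04), Plekha3 (0.06) and Gosr2 (0.06), and Clec4a3 to Cdk16 (0.08), Gga1 (0.08) and Ptpn6 (0.08), the phosphatase that inhibitory receptors recruit. The first neighbour of Clec10a was 1110059G10Rik (0.09), followed by Vamp3 (0.10) and Tspyl1 (0.10), and that of Cd209a was Ccdc32 (0.09), followed by Psat1 (0.11) and Ngly1 (0.11). Pairs of receptors are not ranked by this measure, since Clec4d and Clec4e deviated from their own means by 1.08 and 1.04, and Clec4a2, Clec10a and Cd209a by 0.18, 0.18 and 0.20.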

How the data were processed

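The values are counts of read pairs per gene, deposited by the authors without normalization or filter, after trimming with Trimmomatic, alignment to mm10 with STAR, duplicate marking with Picard and counting with HTSeq. All 9 libraries were used, with totals of 13048075 to 18796479 counts. In R 4.3.3, the 21890 protein-coding genes of GENCODE M21 were kept, filterByExpr (minimum count 10) left 12538, and edgeR 4.0.16 fitted a quasi-likelihood model with TMM and a mean per group. P-values were adjusted over all 12538 genes (Benjamini-Hochberg). Alternatives were DESeq2 1.42.0, other scalings and filters, all genes, a replicate block, fits of only the groups compared, and leaving out each library, for the lists chosen after seeing the data. Named are all 10 receptors and, from 3 pathway lists, genes with an unadjusted p under 0.05 and the most abundant per length. 13 marker lists were summed. 2 genes of these lists are not reported here. The members and lists were chosen with earlier results of these data known. The steps were tested on simulated data. Protein sequences were not used here, so the ITIM was searched in coding sequence. Figures were drawn in Python 3.11.15 with matplotlib 3.10.9.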

Additional observations from a re-analysis of the deposited data

Results flagged for a closer look

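For 4 receptors the effect of OAT-1746 differed between mice with and without the antibody at an unadjusted edgeR p under 0.05, by the test of the interaction itself, all 4 with a positive difference, as had 11.8% of all genes (14.4% negative). In edgeR 0 of the 4 had an adjusted p under 0.05. DESeq2 called 1 of them, Clec12a. The difference of log2 fold changes was 2.43 for Clec4n (adjusted p = 0.162), 1.00 for Clec5a (adjusted p = 0.149), 1.74 for Clec12a (adjusted p = 0.112) and 1.20 for Clec4a1 (adjusted p = 0.172). For Clec4n the effect of OAT-1746 was -2.14 without the antibody and 0.29 with it. For Clec5a it was -0.73 and 0.27, for Clec12a -1.28 and 0.46, and for Clec4a1 -1.31 and -0.11. In the interaction 9 of 9 microglia markers were negative, 4 with an unadjusted edgeR p under 0.05, beside the same shares of all genes. Of 10 monocyte markers 7 were positive (0 with such a p) and 3 negative (1). Border-associated macrophages had 6 (3) and 3 (1) of 9, dendritic cells 7 (2) and 5 (1) of 12, NK cells 2 (0) and 7 (2) of 9. The part of these cell types was not tested. Without OAT-1746 replicate 2 the interaction was 1.62 for Clec4n (unadjusted p = 0.00560), 0.76 for Clec5a (0.0599), 1.34 for Clec12a (0.0193) and 0.79 for Clec4a1 (0.0905), all by edgeR.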

How the results depend on the processing

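Counts of receptors at an unadjusted p under 0.05 changed as follows. The 4 in COMB against OAT-1746 (18.3% of all genes higher) became 3 with the replicate number as a block (9.45%). They became 5 with DESeq2 (19.8%), DESeq2 size factors in edgeR (19.4%), library size only (17.2%) or no filter (16%). The 4 of the interaction became 5 with DESeq2 (13.4% of all genes positive) or no filter (11%). In OAT-1746 against CTR the 6 (16.2% of all genes lower) became 3 with the replicate number as a block (10%), 4 in a fit of only these groups (9.83%), 7 with DESeq2 (16.8%), 7 with no filter (13.7%) and 2 to 8 with a library left out (6.33% to 23.4%). For anti-PD-1 against CTR the 0 became 2, both lower, in a fit of only these groups (2.56% of all genes lower) and 0 to 1 with a library left out (0.743% to 2.84%). For COMB against CTR it became 1, higher, in such a fit (4.53% higher) and 0 to 1 (2.06% to 4.67%), and for COMB against anti-PD-1 0 to 1, higher, with a library left out (1.17% to 3.77%). COMB against OAT-1746 ran from 3 to 6 with a library left out (9.96% to 23.9% of all genes higher), and the 4 of the interaction (11.8% of all genes positive) became 1 with the block (4.59%) and 1 to 6 with a library left out (6.85% to 20.6%). At an adjusted p under 0.05, the 0 in OAT-1746 against CTR became 2 with DESeq2, which called 7.52% of all genes lower. With a library left out that count rose furthest without OAT-1746 replicate 1, a fit that leaves 1 library in that group. The 2 in COMB against OAT-1746 (6.84% of all genes called higher) became 4 with DESeq2 (13.2%), 0 with the block and 0 with only these groups. They became 4 with no filter and 1 with all genes, settings for which no share over all genes is given at the adjusted threshold. With a library left out that count fell in some fits and rose furthest without OAT-1746 replicate 1. The 0 of the interaction became 1 with DESeq2, where the count over all genes went from 45 to 1025. With a library left out the receptor count of the interaction also rose, furthest without OAT-1746 replicate 1, again with 1 library left in that group. With 1 library left in a group, it is assumed to vary like the others. Fewer samples or another number of genes tested enter these settings by construction, and the cause of the other changes was not tested.

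Over all genes, edgeR's adjusted count in OAT-1746 against CTR went from 0 (4049 unadjusted) to 1996 with DESeq2 and 0 to 3617 with a library left out, and in COMB against OAT-1746 from 1979 to 3062 with DESeq2, 2 with the block, 30 with only these groups and 5 to 4033 with a library left out. No receptor's value past its unadjusted threshold changed direction. Of the listed pathway genes at that threshold, chosen for this check after seeing the data, 0 changed direction without OAT-1746 replicate 2, while 11 of 14 in OAT-1746 against CTR, 8 of 13 in COMB against OAT-1746 and 6 of 9 in the interaction lost it.

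The activating minus inhibitory difference, with only the ITIM carriers as inhibitory, moved from 0.07 to 0.39 in CTR, from -0.65 to -0.34 in OAT-1746, from 0.34 to 0.65 in anti-PD-1 and from 0.59 to 0.73 in COMB. With the median in place of the mean it was -0.01, -0.97, 0.31 and 0.54 in these groups. With a library left out it ran from -0.02 to 0.16 in CTR, -1.47 to 0.18 in OAT-1746, 0.18 to 0.50 in anti-PD-1 and 0.54 to 0.62 in COMB. Same-numbered libraries of different groups had deviations from their group means that correlated across genes at -0.35 to 0.10, and the labels do not say that they pair.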

Other observations

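Clec7a (Dectin-1), the receptor for fungal beta-glucans, is annotated as a polymorphic pseudogene in mouse and so lay outside the protein-coding genes tested. It stood at 914 and 676 CPM in CTR, 389.6 and 88.9 in OAT-1746, 400.3 and 688 in anti-PD-1, and 655, 783 and 730.1 in COMB, so OAT-1746 held the 2 lowest libraries. In an edgeR fit of all 13705 genes that passed the filter, its log2 fold change was -1.72 in OAT-1746 against CTR (adjusted p = 0.0906), 1.58 in COMB against OAT-1746 (adjusted p = 0.0714) and 2.16 in the interaction (adjusted p = 0.140). None of these passed. Without OAT-1746 replicate 2, chosen after seeing the data, the values were -1.02, 0.88 and 1.45, again with no adjusted call.

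Of the other lectin receptors listed, Clec4f, Cd207 and Clec4b2 had 0 counts in every library. Clec4a4, Clec12b and Clec4g had counts too low to be tested, with a mean of 0.299, 0.0188 and 0.157 CPM. Clec4f is known from Kupffer cells of the liver and Cd207 from Langerhans cells of the skin.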
